A study of Mus musculus with 24 samples.

Results

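Glycolysis and hypoxia genes were examined as a set of 32 genes, taken by their symbol from tables that list 43626 genes for mouse embryonic fibroblasts (MEFs). Of the 32, 22 encode glucose transporters, glycolytic enzymes, their switches and the enzymes that direct pyruvate, and 10 encode the hypoxia-inducible factors (HIFs), their regulators and hypoxia targets. RNA had been measured in cells depleted of Mof, the histone H4 lysine acetyltransferase encoded by Kat8, and in control cells. The MEF groups were Mof knockout with Adriamycin, Mof wild type with Adriamycin, Mof knockout with vehicle and Mof wild type with vehicle, all at passage 2, with Adriamycin (doxorubicin, a DNA-damaging drug) at 0.1 µg/ml for 24 h. The podocyte groups were Mof knockdown with Adriamycin, scrambled control with Adriamycin, Mof knockdown with vehicle and scrambled control with vehicle, all in MPC5 cells at passage 20, with Adriamycin at 0.25 µg/ml for 24 h. MPC5 is an immortalised mouse podocyte line, so its samples are cultures of 1 line. The sources used here do not give how the knockout and the knockdown were made. Each of the 8 groups had 3 samples, 24 in all. The labels do not say whether these came from separate cultures or embryos. A p-value therefore covers only how far the 3 samples of a group lay apart, and that may be technical spread.

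Glycolysis splits glucose into pyruvate in the cytosol, with early steps that spend ATP and later steps that return it. Hexokinase, phosphofructokinase and pyruvate kinase catalyse the steps that run in 1 direction and carry most of the control. In low oxygen, HIF-1α and HIF-2α escape hydroxylation by the EGLN enzymes and degradation through VHL, pair with ARNT, and raise transcription of glucose transporters, glycolytic enzymes, lactate dehydrogenase and mitophagy genes. Podocytes, the filtration cells of the kidney glomerulus, are known to rely on glycolysis for part of their energy.

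The deposited files hold 4 tables of comparisons, Mof-depleted over control, for each cell type and drug condition. They give a mean normalized count over the samples of the table, a log2 fold change with its standard error (SE) and a p-value adjusted by the authors with DESeq2. No value per sample is given, so the depth per library, the value in each sample and the overlap of groups are unknown. A gene was counted as changed at an adjusted p below 0.05. Kat8 fell in each of the authors' deposited tables, by a log2 fold change of -1.71 ± 0.16 (SE) in MEFs with Adriamycin, -1.96 ± 0.20 in MEFs with vehicle, -1.24 ± 0.14 in podocytes with Adriamycin and -1.49 ± 0.15 in podocytes with vehicle. The 8 fibroblast markers were all present in the MEF tables, with mean counts of 118 to 188626 with Adriamycin and 147 to 221927 with vehicle. Of 8 podocyte markers, the authors' deposited tables for podocytes listed 5 with Adriamycin and 2 with vehicle, and Nphs1, which encodes the slit diaphragm protein nephrin, was listed in neither. Those tables list changed genes only, so the level of an unlisted gene is unknown there. Of 8 leukocyte markers, 0 passed the DESeq2 threshold in MEFs with Adriamycin (0 also at an unadjusted p below 0.05). With vehicle 5 were higher in knockout MEFs, where 17.8% of all genes tested were higher. Ptprc (0.36 ± 0.30), Csf1r (-0.12 ± 0.25) and Itgam (0.04 ± 0.27) did not pass with vehicle in the authors' deposited table. The summed counts of the 8, implied by the deposited means and fold changes, were 5672 in knockout and 4218 in wild-type MEFs with Adriamycin. With vehicle they were 4468 in knockout and 2282 in wild-type MEFs. Lyz2 had the most counts of the 8 in both conditions. Their mean counts ranged from 79.1 to 2624 with Adriamycin and from 58.1 to 1924 with vehicle in the authors' deposited tables, and their part in the results below was not tested. In bulk RNA, fewer cells of a type and less RNA per cell cannot be told apart.

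The DNA before the start sites of these genes holds the short core that HIFs are known to bind, ACGTG or GCGTG, on either strand. RefSeq promoter windows of 300 bases (250 before the start and 50 after it, GRCm38.p6) matched 29 of the 32 genes; Slc2a3, Epas1 and Ndrg1 had no entry. At least 1 core stood in 25 of the 29, or 86.2%, against 46.7% of all 27025 genes with a window. The ACGTG form alone stood in 20 of the 29, or 69%, against 21.8% of all genes. The members' windows had a median GC content of 62.5%, against 52.7% over all windows, and a match is a run of letters and not a measured binding site. Upstream stretches of 250 bases are shown for 4 genes whose RNA is described below, with each core in capitals. Bnip3 had the largest drug difference of the knockout effect among the members, Pgk1 and Ldha are the glycolytic members that fell in podocytes with vehicle, and Gpi1 is the glycolytic member with the smallest adjusted p in MEFs with Adriamycin and has no core here. Where a core stands on both strands it reads CACGTG and counts as 2 overlapping matches.
Bnip3, 5 cores, chr7:138909507-138909756, minus strand: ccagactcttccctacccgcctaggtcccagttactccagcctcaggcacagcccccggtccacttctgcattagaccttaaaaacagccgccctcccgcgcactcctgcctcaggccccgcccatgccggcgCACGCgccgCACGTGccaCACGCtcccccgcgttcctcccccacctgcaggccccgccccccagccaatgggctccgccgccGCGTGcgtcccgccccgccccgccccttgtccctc
Ldha, 5 cores, chr7:46845554-46845803, plus strand: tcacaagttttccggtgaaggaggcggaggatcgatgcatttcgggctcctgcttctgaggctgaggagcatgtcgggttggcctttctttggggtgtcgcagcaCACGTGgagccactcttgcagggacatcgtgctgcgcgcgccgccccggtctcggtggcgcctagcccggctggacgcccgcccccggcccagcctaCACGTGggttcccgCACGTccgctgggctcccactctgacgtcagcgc
Pgk1, 2 cores, chrX:106186850-106187099, plus strand: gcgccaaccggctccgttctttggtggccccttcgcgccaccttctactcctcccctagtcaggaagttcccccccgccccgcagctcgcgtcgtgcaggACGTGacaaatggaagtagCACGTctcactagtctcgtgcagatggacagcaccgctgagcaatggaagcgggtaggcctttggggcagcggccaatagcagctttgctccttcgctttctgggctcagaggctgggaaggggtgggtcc
Gpi1, no core, chr7:34230337-34230586, minus strand: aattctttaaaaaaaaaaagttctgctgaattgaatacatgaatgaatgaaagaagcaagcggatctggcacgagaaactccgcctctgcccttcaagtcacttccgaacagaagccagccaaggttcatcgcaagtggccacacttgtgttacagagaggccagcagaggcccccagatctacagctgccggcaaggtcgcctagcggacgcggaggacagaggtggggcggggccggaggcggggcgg
The cores of Bnip3 lay between 117 and 35 bases before the start, those of Ldha between 145 and 34 bases, and those of Pgk1 at 150 and 131 bases. The RNA of these 4 genes moved in different directions in the comparisons below.

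In MEFs with Adriamycin, 10 glycolytic genes had higher RNA in Mof knockout cells and neither HIF gene passed the threshold. The adjusted p passed the threshold for 14 of the 32 genes (11 higher and 3 lower), against 32.7% of all genes tested in that table (16.6% higher and 16.1% lower). Of the 30 members with an adjusted p, 46.7% changed, and the median log2 fold change of the members was 0.15, beside -0.02 over all genes tested. Among the 21 glycolytic members tested, 10 rose and 3 fell, with a median of 0.26. Of the 9 hypoxia members tested, 1 rose, which was Ndrg1.

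In MEFs with vehicle, 10 of the 32 changed, 9 of them higher and 1 lower, against 37.5% of all genes tested (17.8% higher and 19.6% lower). The share of members, 31.2%, was below that background. Their median log2 fold change was 0.09, beside 0.01 over all genes. Of the 22 glycolytic members, 5 rose and 1 fell, and of the 10 hypoxia members, 4 rose: Bnip3, Hif1a, Egln3 and Ero1l. The members changed in both MEF tables were Gpi1, Aldoa, Tpi1, Pkm and Pfkp, and each had the same sign in both. Over all genes changed in both tables, 2923 in number, 2.7% had opposite signs.

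In podocytes with Adriamycin, 18 of the 32 were listed as changed, or 56.2%, with 7 higher and 11 lower. The glycolytic members among them were split, 6 higher and 6 lower, and of the hypoxia members 1 was higher and 5 were lower. The share of all members lies near the background, 55.7% of all genes tested (27.8% higher and 27.9% lower). In podocytes with vehicle, 3 members were listed, Ndrg1 higher and Ldha and Pgk1 lower, or 9.38%, against a background of 14.3% (8.7% higher and 5.64% lower). How many genes had been tested in podocytes, 17184 with Adriamycin and 13876 with vehicle, was worked out from the ranks of p and its adjusted values.

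**Figure D1:**
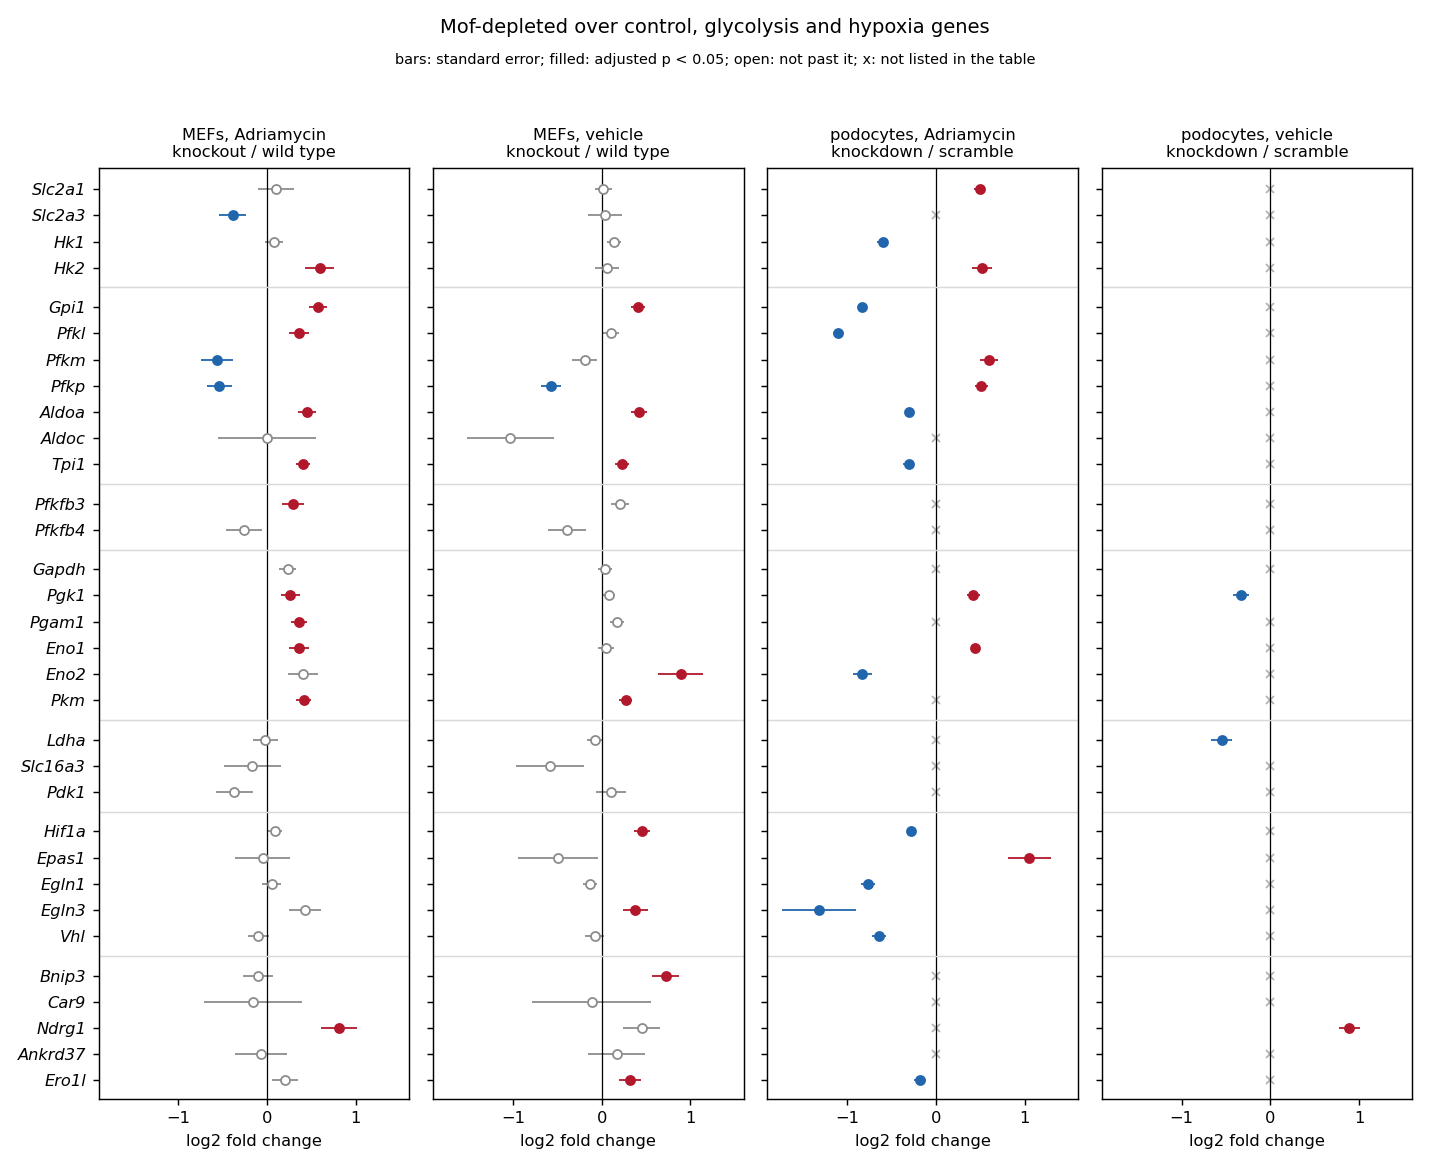
Log2 fold change of each member, Mof-depleted over control, in the 4 deposited tables, with bars of 1 SE; filled points have an adjusted p below 0.05 (red higher, blue lower), open points do not pass, and a grey x at 0 marks a gene that is not listed and has no value. Of the glycolytic members, 10 rose and 3 fell in MEFs with Adriamycin, and 6 rose and 6 fell in podocytes with Adriamycin.

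Glucose entry differed by gene. Hk2, the inducible hexokinase that traps glucose as glucose 6-phosphate, rose in knockout MEFs with Adriamycin in the authors' deposited table (log2 fold change 0.59 ± 0.16, DESeq2 adjusted p = 0.00123). The implied group means there were 1663 normalized counts in knockout and 1107 in wild-type MEFs. With vehicle the same gene had 0.06 ± 0.14 (adjusted p = 0.782) in the authors' deposited table, with 1772 counts in knockout and 1702 in wild-type MEFs. The difference between the drug conditions did not pass the adjusted threshold, as given below. Hk2 also rose in podocytes with Adriamycin, by a log2 fold change of 0.52 ± 0.11 (DESeq2 adjusted p = 2.82e-06, the authors' deposited table). Hk1, the housekeeping hexokinase, fell there, at -0.60 ± 0.06 (adjusted p = 2.03e-20), also from the authors' deposited table for podocytes with Adriamycin. Per kb of exon, Hk2 made up 28.5% of the summed Hk1 and Hk2 counts in knockdown podocytes and 15.5% in scrambled controls, so the balance of the pair lay more towards Hk2 in knockdown cells. The size of such a share depends on the gene lengths used. All exons span 8532 bases for Hk1 and 5969 for Hk2, against 3851 and 5513 in their principal transcripts, and shares on the latter were not computed. In MEFs Hk1 stayed below the threshold in the authors' deposited tables, at 0.08 ± 0.10 with Adriamycin and 0.14 ± 0.08 with vehicle. Slc2a1 encodes GLUT1, the basal glucose transporter, and made up 90.2% to 96.8% of the summed Slc2a1 and Slc2a3 counts per kb in knockout and wild-type MEFs. It rose in podocytes with Adriamycin in the authors' deposited table (0.49 ± 0.06, DESeq2 adjusted p = 1.04e-13). Its values in the authors' deposited tables for MEFs were 0.10 ± 0.20 with Adriamycin and 0.02 ± 0.10 with vehicle, neither past the threshold. Slc2a3, which encodes the high-affinity transporter GLUT3, fell in knockout MEFs with Adriamycin in the authors' deposited table (-0.39 ± 0.15, DESeq2 adjusted p = 0.0349). That call was lost without the filter on low counts (adjusted p = 0.0667). With vehicle its value was 0.04 ± 0.19 in the authors' deposited table.

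Of the early steps after hexokinase, all 6 tested genes passed the threshold in MEFs with Adriamycin, 4 higher and 2 lower. Over all genes tested there, 32.7% changed (16.6% higher and 16.1% lower). Gpi1, which turns glucose 6-phosphate into fructose 6-phosphate, rose by 0.57 ± 0.10 with Adriamycin (DESeq2 adjusted p = 9.01e-07) and by 0.41 ± 0.08 with vehicle (adjusted p = 1.8e-06) in the authors' deposited tables. The implied means with Adriamycin were 14511 counts in knockout and 9744 in wild-type MEFs, and with vehicle 10031 in knockout and 7551 in wild-type MEFs. In knockdown podocytes with Adriamycin it fell by 0.83 on the log2 scale in the authors' deposited table, with 4560 counts in knockdown and 8116 in scrambled cells. Aldoa, the aldolase that cleaves fructose 1,6-bisphosphate, rose by 0.45 ± 0.10 with Adriamycin (DESeq2 adjusted p = 1.69e-04) and by 0.42 ± 0.09 with vehicle (adjusted p = 1.36e-05) in the authors' deposited tables for MEFs. Tpi1, which interconverts the triose phosphates, rose by 0.40 ± 0.08 (adjusted p = 3.32e-06) and 0.23 ± 0.08 (adjusted p = 0.0173) in the same 2 conditions of the authors' deposited tables. Aldoa and Tpi1 both had -0.31 in podocytes with Adriamycin in the authors' deposited table, with an SE of 0.04 for Aldoa and 0.06 for Tpi1. Aldoc, the brain aldolase, was barely present in MEFs, with mean counts of 6.25 with Adriamycin and 14.4 with vehicle in the authors' deposited tables, and did not pass the threshold.

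The phosphofructokinases, which form the enzyme of the committed step from liver, muscle and platelet subunits, moved apart. Pfkl, the liver subunit, rose in knockout MEFs with Adriamycin (0.36 ± 0.11, DESeq2 adjusted p = 0.00703), while Pfkm (-0.57 ± 0.18, adjusted p = 0.00696) and Pfkp (-0.54 ± 0.14, adjusted p = 7.18e-04) fell in the authors' deposited table. With vehicle, Pfkp fell by 0.57 on the log2 scale (SE 0.11, DESeq2 adjusted p = 7.93e-07) in the authors' deposited table. Pfkl (0.11 ± 0.09) and Pfkm (-0.19 ± 0.14) did not pass the threshold with vehicle in the authors' deposited table. In podocytes with Adriamycin the order was turned round: in the authors' deposited table Pfkl fell by 1.10 on the log2 scale (SE 0.06), Pfkm rose by 0.60 ± 0.10 and Pfkp rose by 0.51 ± 0.07. Per kb of exon, Pfkl made up 65.1% of the summed phosphofructokinase counts in knockout and 49.6% in wild-type MEFs with Adriamycin, and 65% in knockout and 58.5% in wild-type MEFs with vehicle. The Pfkl share in podocytes with Adriamycin was 41.2% in knockdown and 69% in scrambled cells. By the length of the principal transcripts it was 40.1% in knockdown and 67.6% in scrambled cells. The order of the other subunits depended on the length. In knockdown podocytes Pfkm made up 38.5% and Pfkp 20.3% per kb of exon, but 24.3% and 35.6% by principal transcripts. The summed level changed less than its makeup in MEFs, with a depleted to control ratio of 0.978 with Adriamycin and 0.969 with vehicle, and was lower in podocytes with Adriamycin, at 0.782. Pfkm shares exons with Senp1 on the opposite strand, and Senp1 had the same sign as Pfkm: -0.68 in MEFs with Adriamycin, -0.93 in MEFs with vehicle and 1.22 in podocytes with Adriamycin in the authors' deposited tables. Pfkp shares exons with Pitrm1, which had 0.01, -0.37 and 0.54 in those tables deposited by the authors. The sources used here do not give the strand setting of the counting. Without strand, reads of these pairs cannot be told apart.

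**Figure D2:**
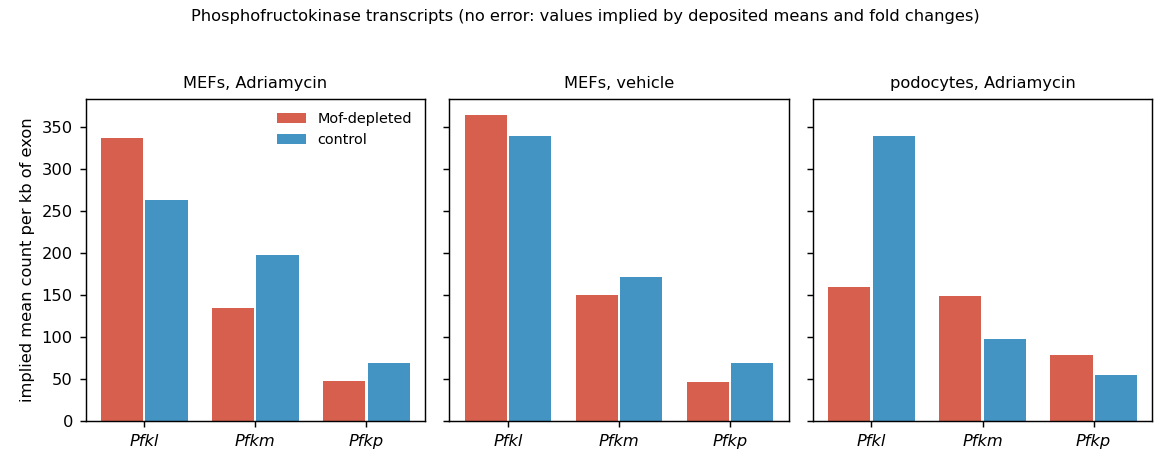
Mean counts per kb of exon of the 3 phosphofructokinase genes, implied by the deposited means and fold changes, in Mof-depleted (left bar of each pair) and control cells (right bar), without error bars since no sample values are given. Pfkl is the taller pair in MEFs and is higher in knockout cells there, and it is lower in knockdown podocytes, where Pfkm and Pfkp are higher.

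Of the switches, Pfkfb3 and Pfkfb4 encode the enzymes that set fructose 2,6-bisphosphate, the activator of phosphofructokinase. Pfkfb3 rose with Adriamycin at the edge of the threshold (0.29 ± 0.12, DESeq2 adjusted p = 0.0494) and had 0.21 ± 0.10 (adjusted p = 0.0997) with vehicle in the authors' deposited tables for MEFs. Without the filter on low counts the first of these had an adjusted p of 0.0941. Pfkfb4 did not pass in MEFs, at -0.26 ± 0.20 with Adriamycin and -0.39 ± 0.21 with vehicle in the authors' deposited tables. Neither gene was listed in podocytes.

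The 6 genes of the later, ATP-returning steps had positive fold changes in MEFs in both conditions, with 4 past the threshold with Adriamycin and 2 with vehicle. These are 66.7% and 33.3% of the 6, against 32.7% and 37.5% of all genes tested. Pkm, a pyruvate kinase gene, was the member with the most counts per kb in both MEF tables. It rose by 0.41 ± 0.08 with Adriamycin (DESeq2 adjusted p = 1.15e-05) and by 0.27 ± 0.07 with vehicle (adjusted p = 7.04e-04) in the authors' deposited tables. Pgam1, a phosphoglycerate mutase, rose with Adriamycin (0.36 ± 0.09, adjusted p = 5.13e-04) and had 0.17 ± 0.08 (adjusted p = 0.0754) with vehicle in the authors' deposited tables, tested with DESeq2. Eno1, the widely expressed enolase, rose with Adriamycin (0.36 ± 0.11, DESeq2 adjusted p = 0.00798) and had 0.05 ± 0.09 with vehicle in the authors' deposited tables. Eno2, the neuronal enolase, had 0.40 ± 0.17 (adjusted p = 0.0507) with Adriamycin and rose with vehicle (0.89 ± 0.25, adjusted p = 0.00152) in the authors' deposited DESeq2 tables. Its difference between the conditions, -0.49 ± 0.30, did not pass (adjusted p = 0.367, z test over all genes). Its implied mean counts with Adriamycin were 993 in knockout and 753 in wild-type MEFs, and with vehicle 385 in knockout and 209 in wild-type MEFs. In podocytes with Adriamycin the 2 enolases went opposite ways in the authors' deposited table, Eno1 at 0.44 ± 0.05 (DESeq2 adjusted p = 2.94e-15) and Eno2 at -0.83 ± 0.11 (adjusted p = 9.13e-14).

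Pgk1, the first ATP-forming enzyme of the pathway, was the member listed in both podocyte tables. It rose with Adriamycin (0.42 ± 0.07, adjusted p = 7.09e-09) and fell with vehicle (-0.33 ± 0.09, adjusted p = 0.00641) in the authors' deposited DESeq2 tables for podocytes. Opposite signs were common there, at 34.3% of the 1518 genes listed in both podocyte tables, and the difference between the conditions was not tested. In MEFs Pgk1 rose with Adriamycin (0.26 ± 0.11, DESeq2 adjusted p = 0.0423; 0.0807 without the filter on low counts) and had 0.08 ± 0.07 with vehicle in the authors' deposited tables. Gapdh, often used as a reference gene, had 0.23 ± 0.10 with Adriamycin (DESeq2 adjusted p = 0.0744) and 0.04 ± 0.08 with vehicle in the authors' deposited tables for MEFs, neither past the threshold. It has 90 near-identical copies in the genome, and the sources used here do not give how reads matching several places were counted. In all, 18 of the 32 members share exons with another gene or have such copies, and of the other 14, 4 changed in MEFs with Adriamycin and 3 in MEFs with vehicle. These are 28.6% and 21.4% of the 14, beside 32.7% and 37.5% of all genes tested. With Adriamycin the share lies near the background, and the 14 include Aldoc, which had no adjusted p there. With vehicle it lies below. The 18 were flagged by annotation alone and include Gpi1, Aldoa, Tpi1, Pgk1, Pgam1, Eno1 and Pkm. In MEFs with Adriamycin, mean counts were 20250 for Aldoa and 25.2 for its partner Fam57b, but 554 for Pfkm and 560 for Senp1. Whether shared reads or the makeup of the 14 set their share was not tested.

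Of the 3 genes that decide the fate of pyruvate, none passed the threshold in MEFs. Ldha, the lactate dehydrogenase subunit that turns pyruvate into lactate, had -0.02 ± 0.14 with Adriamycin (95% interval -0.29 to 0.25) and -0.08 ± 0.09 with vehicle (-0.26 to 0.10) in the authors' deposited tables for MEFs. Slc16a3, the lactate exporter MCT4, had -0.17 ± 0.32 with Adriamycin and -0.58 ± 0.38 with vehicle, and Pdk1, a kinase that shuts pyruvate dehydrogenase, had -0.37 ± 0.21 and 0.11 ± 0.17 in the authors' deposited tables. In podocytes with vehicle Ldha fell by 0.55 on the log2 scale in the authors' deposited table (SE 0.12, DESeq2 adjusted p = 1.05e-04), and it was not listed with Adriamycin.

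Among the HIF factors and regulators, Hif1a, the oxygen-regulated HIF-1α subunit, had 0.09 ± 0.08 (DESeq2 adjusted p = 0.374) in knockout MEFs with Adriamycin and rose with vehicle (0.45 ± 0.09, adjusted p = 3.73e-06) in the authors' deposited tables. The implied means with Adriamycin were 5259 counts in knockout and 4936 in wild-type MEFs, and with vehicle 5328 in knockout and 3899 in wild-type MEFs. In knockdown podocytes with Adriamycin Hif1a fell by 0.28 on the log2 scale in the authors' deposited table (SE 0.05, adjusted p = 5.02e-07, DESeq2). Epas1, which encodes HIF-2α, rose there by 1.05 ± 0.24 at a low mean count of 65.2 in the authors' deposited table (DESeq2 adjusted p = 4.13e-05). In MEFs it did not pass, at -0.05 ± 0.31 with Adriamycin and -0.49 ± 0.45 with vehicle in the authors' deposited tables. The 3 members that hold HIF down fell in knockdown podocytes with Adriamycin. In the authors' deposited table Egln1, the main prolyl hydroxylase, had -0.77 ± 0.08, and Vhl, the ubiquitin ligase subunit, had -0.64 ± 0.08. Egln3, a hydroxylase that HIF itself induces, had -1.32 ± 0.42 there, at a low mean count of 17.3. Their DESeq2 adjusted p was 2.5e-23 for Egln1, 0.0037 for Egln3 and 1.98e-14 for Vhl in the authors' deposited table. With all 5 genes of this group listed as changed, 1 higher and 4 lower, the group stands beside a background of 55.7% changed. In MEFs, Egln3 had 0.43 ± 0.18 (adjusted p = 0.0516) with Adriamycin and rose with vehicle (0.38 ± 0.14, adjusted p = 0.0271) in the authors' deposited DESeq2 tables. Egln1 and Vhl did not pass the threshold in MEFs, with values between -0.13 and 0.05 in the authors' deposited tables.

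Among the other hypoxia targets, Bnip3, a mitophagy receptor on the outer mitochondrial membrane, had -0.10 ± 0.17 (DESeq2 adjusted p = 0.684) in knockout MEFs with Adriamycin and rose with vehicle (0.72 ± 0.15, adjusted p = 1.6e-05) in the authors' deposited tables. The implied means with Adriamycin were 338 counts in knockout and 363 in wild-type MEFs, and with vehicle 519 in knockout and 315 in wild-type MEFs. It has 4 near-identical copies in the genome. Ndrg1, a stress gene induced in low oxygen, rose in knockout MEFs with Adriamycin (0.81 ± 0.20, DESeq2 adjusted p = 5.40e-04) and had 0.45 ± 0.21 (adjusted p = 0.0839) with vehicle in the authors' deposited tables. It also rose in podocytes with vehicle, by 0.89 ± 0.12 (DESeq2 adjusted p = 1.47e-10) in the authors' deposited table. Ero1l, an oxidase of the endoplasmic reticulum, had 0.20 ± 0.15 in MEFs with Adriamycin, rose with vehicle (0.32 ± 0.12, adjusted p = 0.022), and fell in podocytes with Adriamycin (-0.18 ± 0.07, adjusted p = 0.0181) in the authors' deposited DESeq2 tables. Ankrd37 (mean counts of 42.6 and 37.2) and Car9 (7.11 and 6.36), the carbonic anhydrase often used as a hypoxia marker, did not pass in MEFs with Adriamycin or vehicle in the authors' deposited tables.

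**Figure D3:**
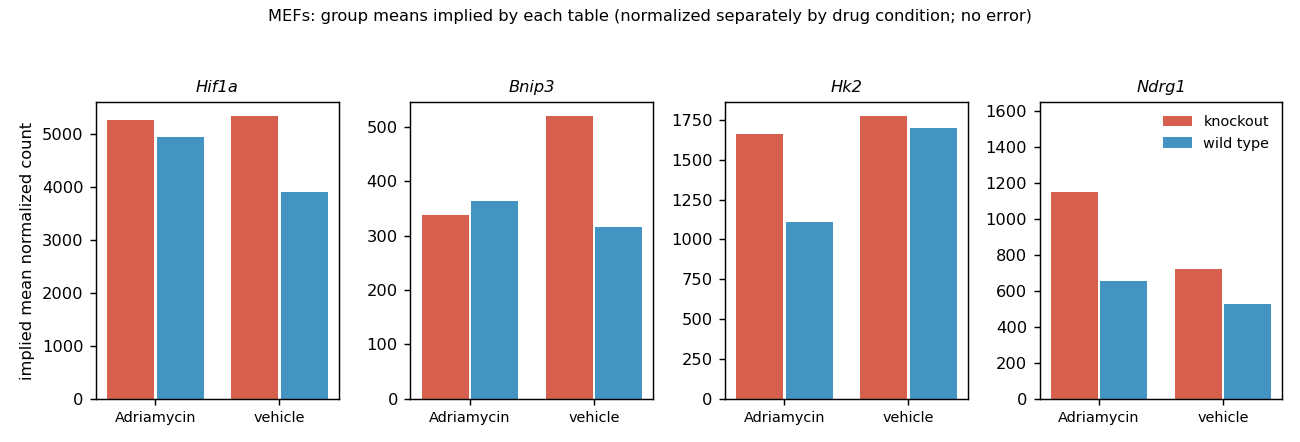
Mean normalized counts of 4 members in knockout (left bar) and wild-type MEFs (right bar) with Adriamycin and with vehicle, implied by each deposited table and without error bars; the tables were normalized separately. Hif1a and Bnip3 stand apart between the genotypes with vehicle (Bnip3 at 519 in knockout and 315 in wild type), and Hk2 with Adriamycin (1663 in knockout and 1107 in wild type).

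Whether the knockout effect differed between the drug conditions was tested in MEFs from the 2 fold changes and their SEs, which come from tables with no sample in common. Of 30 members tested, 2 differed by the z test with Benjamini-Hochberg adjustment over 13973 genes, 0 higher with Adriamycin and 2 lower, against 7.09% of all genes (3.49% higher and 3.61% lower). The knockout effect on Bnip3 was lower with Adriamycin than with vehicle by a log2 difference of -0.82 ± 0.23 (SE; adjusted p = 0.00885, z test over all genes). For Hif1a the difference was -0.36 ± 0.12 (adjusted p = 0.0356, z test over all genes), and that call was lost without the filter on low counts (adjusted p = 0.0573). With vehicle 5 of 8 leukocyte markers were higher in knockout MEFs, while Ptprc, Csf1r and Itgam did not pass, as given above. The part of such cells in the differences of Bnip3 and Hif1a was not tested. Of all 30, 4 had an unadjusted p below 0.05 in that test. Hk2 and Eno1, with the opposite sign, had differences of 0.53 ± 0.21 for Hk2 (adjusted p = 0.101, z test) and 0.31 ± 0.14 for Eno1 (adjusted p = 0.198, z test), and neither passed. The median difference was 0.08 for the members and -0.02 for all genes. For Aldoa, changed in both conditions, the difference of 0.02 had a 95% interval of -0.24 to 0.29.

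**Figure D4:**
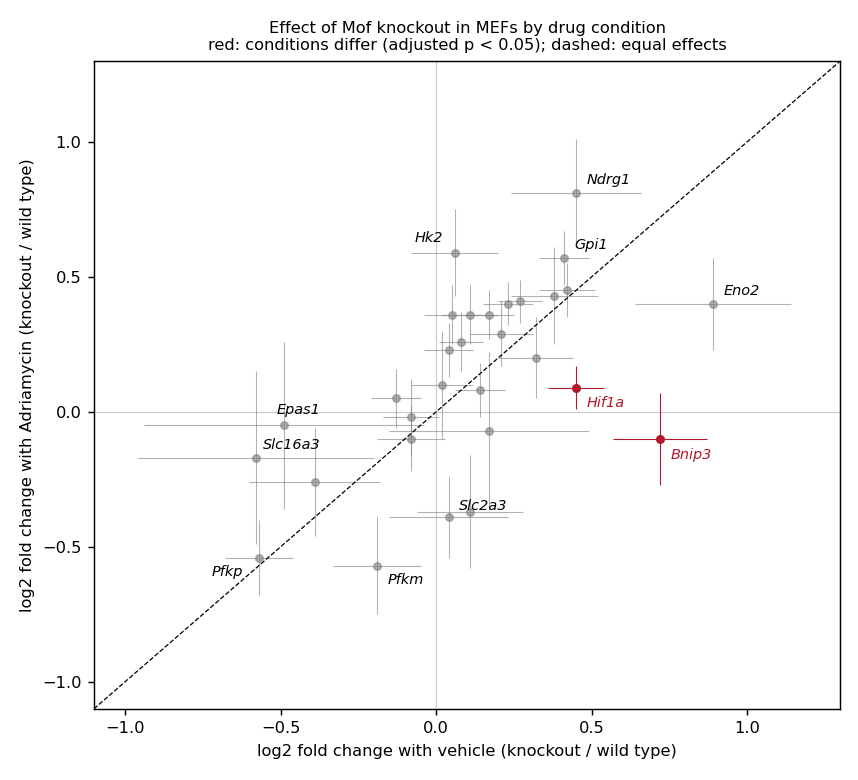
Log2 fold change of knockout over wild type for the 30 members tested in both MEF tables, with Adriamycin on the vertical axis and vehicle on the horizontal axis; bars are 1 SE and the dashed line marks equal effects. Bnip3 and Hif1a, drawn in red, lie below the line, with differences of -0.82 and -0.36.

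Podocytes and MEFs with Adriamycin were then set side by side for the 9 members changed in both. The 2 sets differ in dose (0.25 µg/ml in podocytes and 0.1 µg/ml in MEFs), passage, and the means of depletion, and no sample is shared. Of the 9, 6 had opposite signs, or 66.7%, and this lies near the 74.5% of opposite signs among all 3191 genes changed in both cell types. Gpi1, Pfkl, Aldoa and Tpi1 fell in podocytes and rose in MEFs. Pfkm and Pfkp rose in podocytes and fell in MEFs, and Hk2, Pgk1 and Eno1 rose in both. With vehicle, 0 members changed in both cell types by the DESeq2 adjusted p. Of the 3 listed in podocytes, Ndrg1 had an unadjusted p below 0.05 in MEFs (0.0351 in the authors' deposited DESeq2 table). Among all 890 genes changed in both cell types with vehicle, 38.7% had opposite signs.

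**Figure D5:**
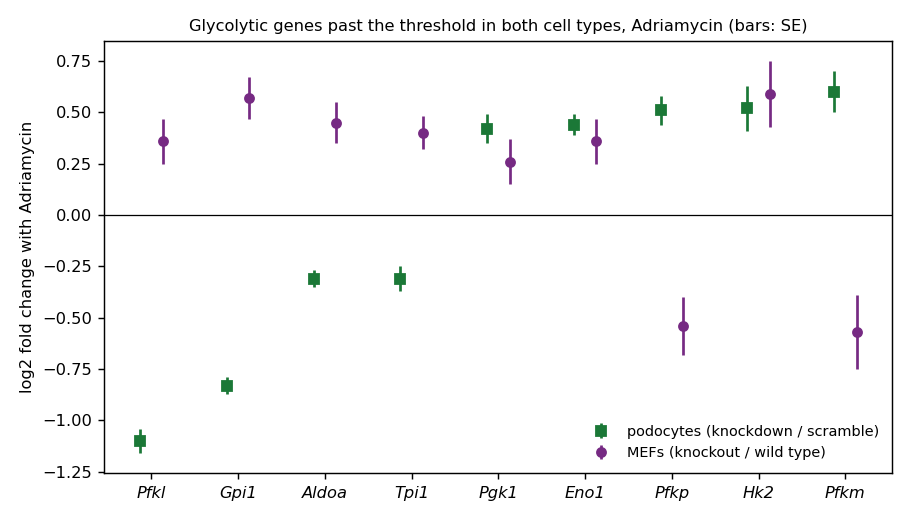
Log2 fold change with Adriamycin for the 9 members changed in both cell types, in podocytes (green squares, knockdown over scramble) and MEFs (purple circles, knockout over wild type), with bars of 1 SE. Pfkl, Gpi1, Aldoa and Tpi1 are below 0 in podocytes and above 0 in MEFs, and Pfkp and Pfkm the reverse.

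Other genes of the same pathways, 114 in 7 lists, give the setting. In MEFs with Adriamycin 37 of them changed (23 higher and 14 lower), and with vehicle 39 (24 higher and 15 lower). In podocytes 65 were listed with Adriamycin (23 higher and 42 lower) and 26 with vehicle (16 higher and 10 lower). These are 32.5%, 34.2%, 57% and 22.8% of the 114, against 32.7%, 37.5%, 55.7% and 14.3% of all genes tested in the same 4 tables. Of the listed genes with an adjusted p in MEFs, 37.8% changed with Adriamycin and 38.6% with vehicle. The shares of the 114 lie near those backgrounds except in podocytes with vehicle, and the MEF shares of tested genes lie somewhat above them. Of 13 genes of pyruvate dehydrogenase and mitochondrial entry, 1 rose and 5 fell in MEFs with Adriamycin, and the 6 that changed with vehicle all fell. That is 46.2% of the list in each condition, against the same backgrounds of 32.7% and 37.5%. With Adriamycin Pdpr, the regulatory subunit of pyruvate dehydrogenase phosphatase, fell (-0.79 ± 0.17, DESeq2 adjusted p = 3.27e-05) in the authors' deposited table for MEFs. Kinase genes went both ways there: Pdk4 rose (0.62 ± 0.15, DESeq2 adjusted p = 4.32e-04) and Pdk2 fell (-0.76 ± 0.17, adjusted p = 1.36e-04). With vehicle the kinase gene Pdk3 fell (-0.54 ± 0.09, DESeq2 adjusted p = 4.04e-08) in the authors' deposited table. Dlat, which encodes the acetyltransferase core of pyruvate dehydrogenase, also fell there, by 0.39 on the log2 scale (SE 0.08, DESeq2 adjusted p = 2.33e-05). The 2 subunits of its first enzyme in podocytes with Adriamycin went opposite ways, Pdha1 at 1.29 ± 0.09 and Pdhb at -1.31 ± 0.06 in the authors' deposited table.

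The pentose phosphate pathway, which draws on glucose 6-phosphate, had 4 of 11 genes changed in MEFs with Adriamycin, all higher, and 4 higher and 2 lower with vehicle. The shares changed were 36.4% with Adriamycin, near the background of 32.7%, and 54.5% with vehicle, against 37.5%. Prps2, which makes the ribose donor of nucleotides, rose by 0.62 ± 0.08 with Adriamycin and by 0.62 ± 0.12 with vehicle in the authors' deposited tables for MEFs. Of 28 other hypoxia-induced genes, 9 rose and 2 fell in MEFs with Adriamycin, and 10 rose and 1 fell with vehicle. Both come to 39.3% changed, near the 37.5% over all genes with vehicle and against 32.7% with Adriamycin. Kdm3a, a HIF-induced histone demethylase (0.60 ± 0.09), and Plod2, a collagen lysyl hydroxylase (0.55 ± 0.08), rose with vehicle in the authors' deposited table for MEFs. In podocytes with Adriamycin the same list had 3 higher and 14 lower, or 60.7% changed, against 55.7% of all genes. There Vegfa, the vascular growth factor that podocytes secrete, fell by 1.27 on the log2 scale (SE 0.05, DESeq2 adjusted p = 1.72e-136), and Ak4, a mitochondrial adenylate kinase, fell by 2.33 (SE 0.18, adjusted p = 3.62e-38) in the authors' deposited table. With vehicle 7 of the 28 were higher and 2 lower in podocytes, or 32.1% against 14.3% of all genes, among them P4ha2, a collagen prolyl hydroxylase, at 0.76 ± 0.08 in the authors' deposited table. Of 15 HIF partners and degradation genes, 1 rose and 2 fell in MEFs with Adriamycin, and 3 rose and 1 fell in MEFs with vehicle. Of those with an adjusted p, 21.4% changed with Adriamycin and 28.6% with vehicle, below the 32.7% and 37.5% over all genes. In podocytes 6 were higher and 4 lower with Adriamycin, or 66.7% of the list against 55.7% of all genes. With vehicle 1 was higher there, or 6.67% against 14.3%. Cul2, the cullin of the VHL ligase, fell in MEFs (-0.58 ± 0.11 with Adriamycin and -0.69 ± 0.09 with vehicle) and rose in podocytes with Adriamycin (0.82 ± 0.08) in the authors' deposited tables. Tceb1, which encodes elongin C of the same ligase, rose by 0.64 ± 0.06 in podocytes with Adriamycin in the authors' deposited table (DESeq2 adjusted p = 4.71e-28). Egln2, the third HIF prolyl hydroxylase, rose in MEFs (0.45 ± 0.09 with Adriamycin and 0.31 ± 0.08 with vehicle) and had -0.54 ± 0.09 in podocytes with Adriamycin in the authors' deposited tables.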

How the data were processed

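RNA had been sequenced from 24 samples in 8 groups of 3. Alignment with TopHat2 2.0.13 to GRCm38, counting with featureCounts 1.4.5-p1 and testing with DESeq2 1.4.1 are named by the submitters' processing notes. The sources used here do not give the strand setting, the handling of multi-mapping reads or the shrinkage of fold changes. The deposited signal is the mean of size-factor normalized counts over the samples of a table, made by the authors. Each log2 fold change comes with a standard error, both as deposited. The deposited score is a Wald statistic. Each p-value, and its Benjamini-Hochberg adjusted form, was likewise deposited by the authors. The sign of Kat8 set the direction. The largest SE in the MEF tables was 0.60 with Adriamycin and 0.71 with vehicle, and values were used as deposited, so changes of genes with few reads may be understated. Library depth is unknown, and SEs give the precision.

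Computed here, with Python 3.11.15, numpy 2.4.6, pandas 2.3.3 and scipy 1.17.1, were counts of changed genes, group means implied by equal weights of 3 and 3 samples, counts per kb of GENCODE M21 exons, near-identical copies (BLAST 2.17.0, 95% identity over 200 bases), promoter cores, and the two-sided z test of the drug difference. That test was also run on fold changes simulated independently with the deposited SEs. Such a run could not check the SEs themselves, shrinkage, or dependence between the tables. The members and lists were chosen with earlier results of these data known. Named genes were Kat8, every member with a value, and of each other list in each table up to 4 with the smallest adjusted p, 2 higher and 2 lower. Alternatives were a stricter threshold, a minimum fold change, other filters on low counts, centring on the median, and leaving out members with shared exons or near-identical copies. Adriamycin was not compared with vehicle directly.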

Additional observations from a re-analysis of the deposited data

Results flagged for a closer look

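The effect of Mof knockout on Bnip3 in MEFs differed between the drug conditions. The log2 fold change was -0.10 ± 0.17 (SE) with Adriamycin and 0.72 ± 0.15 with vehicle in the authors' deposited tables, a difference of -0.82 (95% interval -1.26 to -0.37; z test, adjusted p = 0.00885). The same test gave -0.36 for Hif1a (95% interval -0.59 to -0.13, adjusted p = 0.0356), with 0.09 ± 0.08 with Adriamycin and 0.45 ± 0.09 with vehicle in the authors' deposited tables. These are the 2 that passed of 30 members tested, against 7.09% of all genes. The Hif1a call was lost without the filter on low counts. Both genes share exons with another gene or have near-identical copies. Leaving such members out removed both, so the 0 that then remained is no check of either call. Mean counts with Adriamycin and vehicle were 1.38 and 1.86 for Gm15283, which shares exons with Hif1a, beside 5097 and 4614 for Hif1a. For Gm16439, a near-identical copy of Bnip3, they were 19.2 and 23.5, beside 351 and 417 for Bnip3 in the authors' deposited tables. The part of shared reads was not tested.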

How the results depend on the processing

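Requiring a log2 fold change of at least 0.5 in size left 5 members changed in MEFs with Adriamycin, 3 in MEFs with vehicle and 11 in podocytes with Adriamycin. It left 18, 23, 43 and 14 other pathway genes in MEFs with Adriamycin, MEFs with vehicle, podocytes with Adriamycin and podocytes with vehicle. At an adjusted p below 0.01, 16 other pathway genes remained in podocytes with vehicle and 1 member kept a drug difference, as did 1 without the filter on low counts. Leaving out members with shared exons or near-identical copies, an alternative chosen after seeing the data, left 4, 3, 8 and 0 changed members in the same order. These are 28.6%, 21.4%, 57.1% and 0% of the 14 kept, against 32.7%, 37.5%, 55.7% and 14.3% of all genes tested. It left 0 drug differences by the z test because Bnip3 and Hif1a, which had passed, were among those left out. Of the members kept, Hk2 alone had an unadjusted p below 0.05 in the z test (0.0109). Centring each table on its median gave 13 higher and 3 lower members in MEFs with Adriamycin and 11 higher and 1 lower with vehicle, and turned the drug differences of Aldoa to -0.01 and of Pfkp to -0.00223, neither past the threshold. The shares of all genes passing under the changed thresholds, filters and centring are not given here. The counts under those settings therefore have no background beside them. Over single genes and settings, 442 kept their direction and call, 36 lost the call, 6 gained it and 2 changed sign. No paired analysis was possible because the tables hold comparisons and not samples, and leaving out each replicate was not run for that reason. Depth is unknown, and genes with few reads, such as Aldoc and Car9, have wide errors.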

Other observations

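Of the 114 other pathway genes, 98 could be tested for a drug difference of the knockout effect in MEFs, and 11 passed, 2 higher and 9 lower with Adriamycin. That is 11.2% of the 98, against 7.09% of all genes (3.49% higher and 3.61% lower). These 11 genes are named because they passed, so they were chosen after their values were seen. Among hypoxia-induced genes, the mTOR inhibitor gene Ddit4 had 0.10 with Adriamycin and 0.75 with vehicle, a difference of -0.64 ± 0.14 (adjusted p = 5.25e-04, z test over all genes). Bnip3l, a mitophagy receptor related to Bnip3, differed by -0.45 (adjusted p = 0.0305), Rora, a nuclear receptor, by -0.66 (adjusted p = 0.0182), and Narf by -0.56 (adjusted p = 0.0211), all by the same z test. Over all 28 hypoxia-induced genes the differences were split, 16 negative and 12 positive. Bhlhe40 (0.47, adjusted p = 0.283) and Higd1a (0.44, adjusted p = 0.0751), chosen after their values were seen, had the opposite sign and did not pass the z test.

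The knockout effect was also lower with Adriamycin than with vehicle for the transporters Slc2a9 (-1.64), which carries urate, and Slc2a13 (-1.08), which carries myo-inositol. The same held for the effect on the muscle enolase Eno3 (-0.82) and the glycogen genes Gys1 (-0.42) and Pygb (-0.36). The 2 genes with a higher knockout effect with Adriamycin were Prps1, a phosphoribosyl pyrophosphate synthetase (0.96 ± 0.15), and Slc16a1, the lactate transporter MCT1 (0.77 ± 0.21). Slc2a9 rose in both conditions in the authors' deposited tables, by 0.56 ± 0.11 with Adriamycin and 2.19 ± 0.25 with vehicle. Hk3, the hexokinase of leukocytes, rose in MEFs with vehicle (0.85 ± 0.34, DESeq2 adjusted p = 0.038, the authors' deposited table), the table in which 5 of 8 leukocyte markers were higher.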
